A study of Mus musculus with 17 samples.

Results

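Izumo1r encodes folate receptor 4 (FR4, also called Juno), a protein of the folate receptor family that is held on the cell surface by a lipid anchor. On mouse T cells it is a marker of regulatory T cells (Tregs), which restrain immune responses and depend on the transcription factor Foxp3, and together with CD73 it marks anergic CD4+ T cells. On the egg the same protein is the receptor for the sperm protein Izumo1. Other folate receptors bind folates outside the cell, while carriers move them across membranes and the enzymes of one-carbon metabolism use them to make nucleotides and methyl groups. Folate binding by FR4 was not measured here. Nfkbid encodes IkBNS, an atypical IkB protein of the nucleus that modulates transcription by NF-kB.

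Izumo1r is 1 of 47643 rows of the table of gene counts, and it was chosen by its library-scaled counts in these same 17 libraries, which were graded over the 3 genotypes, highest in the transgenic and lowest in the knockout group. Its own differences between genotypes are therefore given as a description, with no test. RNA was from GFP+ Tregs sorted out of CD4+ enriched spleen cells of NOD mice, which are prone to autoimmune diabetes, and every group carried the Foxp3-GFP reporter. The 6 transgenic libraries (genotype NOD-60A Tg+, Nfkbid transgenic) were each made from 1 sample. The 5 knockout libraries (NOD- Nfkbid-KO) and the 6 control libraries (Control NOD) were each a pool of 2 samples, so that each comparison with the transgenic group also set unpooled against pooled libraries. The running numbers in the library headers lay in separate ranges for transgenic and knockout libraries. Control libraries lay partly within the transgenic range and otherwise outside both. The headers do not say what these numbers stand for. Genotype cannot be told apart from them for the knockout libraries. For transgenic against control it can be told apart only in part, through the controls that shared the transgenic range, and this was not tested. The promoter that drives the transgene, and the age and sex of the mice, are not given in the sources used here. The library names carry identifiers that do not recur between libraries, but the labels do not say that these are separate animals, so p-values measure the spread between libraries, which may be technical.

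Library totals lay between 3133359 and 4726589 counts, and 3 counts, the limit that a count of 0 allows, came to 0.635 to 0.957 unscaled CPM (counts-per-million). Of 19 listed Treg genes, 12 passed the filter on low counts. Among these, Foxp3 lay between 256.3 and 367.5, Il2ra between 113.5 and 203.1 and Gpr83 between 750.1 and 1628 CPM over the 17 libraries (here and below CPM is after TMM scaling, a correction for library composition, unless called unscaled). Il2rb, Itgae and Nrp1 also passed but did not exceed 9.155, 8.93 and 11.3 CPM. Not every row of this table, however, behaved as a count of the gene it names. The rows of B2m, Tmsb4x and Pkm held 0 counts throughout, Actb reached at most 7 counts and Eef1a1 at most 2, although nearly all cells transcribe these genes. The Treg genes Tnfrsf4 and Tnfrsf18 did not exceed 0.289 and 0.301 CPM. The other listed Treg genes that missed the filter, Capg, Icos, Tnfrsf9, Tigit and Lrrc32, reached at most 0.861, 1.34, 2.69, 3.84 and 5.53 CPM. The row of Nfkbid itself averaged 8.73 CPM in transgenic, 4.72 CPM in knockout and 4.55 CPM in control libraries, so this row did not separate the knockout from the control group and does not check the genotypes. Names below are those of the rows.

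The Izumo1r row (ENSMUSG00000031933) stands for a gene on the minus strand of chromosome 9, from 14885814 to 14903949 in GRCm38, with 5 annotated transcripts whose exons merge into 9 intervals of 2320 bases in all. It lies in the first 15 Mb of its chromosome, as do Foxp3, Il2ra and Gpr83. Of the listed Treg rows further along, Nt5e had 389.9 to 733.2 CPM, Ikzf2 136.9 to 299.6, Ctla4 42.5 to 167.9 and Ikzf4 70.5 to 108.7. The other listed Treg rows further along did not exceed 26.8 CPM. When the exons of the row were moved along the genome in steps of 0.5 kb, they met no exon of another gene up to 11.5 kb in either direction, and first met one at 12.0 kb upwards and at 15.5 kb downwards, where it was Gpr83. A move of 0.5 kb, however, left 15.7% of the exon bases on Izumo1r's own exons. Spearman's rho of counts with exon overlap was scanned over moves of up to 20 kb, across rows, which are not independent. Overlap was taken in bases, not as a share. With no move it was the length of the row's own exons, so that rho there set counts against exon length. Over the 53 rows within 2 Mb rho was 0.663 unmoved, 0.558 to 0.688 at moves of up to 3.5 kb in either direction and 0.381 at 7 kb upwards. Over the 99 rows within 5 Mb rho was 0.448 unmoved, 0.473 at 7 kb upwards and highest, at 0.563, at 10 kb downwards. Over the 266 rows within 10 Mb it was 0.488 unmoved and 0.486 at 7 kb upwards. The nearest rows had their highest values at short moves and at none, which overlap taken in bases can give by itself. The move with the highest value differed between the windows. The scan could therefore not decide whether the row is displaced. How much of the Izumo1r transcript the row counts was therefore not established.

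The start of the gene is shown here because NF-kB, which Nfkbid modulates, and the forkhead factor Foxp3 bind DNA at short motifs, and Gpr83, the nearest neighbour and also a Treg gene, is shown beside it. Both are RefSeq sequences of GRCm38.p6, 5′ to 3′ on the gene's own strand, from 250 bases before the annotated start to 50 after it. Izumo1r is chr9:14903718-14904017 on the minus strand and Gpr83 is chr9:14859960-14860259 on the plus strand. The RefSeq start of Izumo1r lies inside the span given above, which begins on this strand at 14903949. Part of the 250 bases before the RefSeq start is therefore within that span, and fewer lie before it. For Gpr83 the RefSeq start is also the start of the row's span, 14860210. Capitals mark a match to a kB-like motif, GGG and CC with any 5 bases between them.
Izumo1r: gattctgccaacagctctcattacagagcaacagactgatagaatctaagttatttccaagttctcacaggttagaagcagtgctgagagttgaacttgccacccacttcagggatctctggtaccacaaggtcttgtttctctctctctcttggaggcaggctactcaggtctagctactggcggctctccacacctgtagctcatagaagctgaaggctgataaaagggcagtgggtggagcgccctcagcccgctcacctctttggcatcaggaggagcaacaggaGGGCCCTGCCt
Gpr83: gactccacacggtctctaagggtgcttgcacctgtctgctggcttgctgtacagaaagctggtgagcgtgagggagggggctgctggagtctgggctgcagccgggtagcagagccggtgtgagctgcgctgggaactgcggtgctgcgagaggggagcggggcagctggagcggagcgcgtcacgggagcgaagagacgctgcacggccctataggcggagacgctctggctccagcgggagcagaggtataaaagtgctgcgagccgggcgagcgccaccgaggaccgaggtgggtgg
Searched on both strands, the kB-like motif had 1 match in the Izumo1r window, GGGCCCTGCC, at bases 39 to 48 after the RefSeq start, and none in the Gpr83 window. Neither window held the forkhead motif GTAAACA or the NFAT core GGAAAA. Of 32851 promoter windows of this length, 50.8% held the kB-like motif, 3.6% the forkhead motif and 23.4% the NFAT core, so that a kB-like match was about as common as its absence. A match is a run of letters and no measured binding site.

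Izumo1r was about 1.5 times as high in transgenic as in control Tregs and about 0.785 times as high in knockout as in control Tregs. The 6 transgenic libraries had 234.9, 287.5, 264.8, 285.3, 262.1 and 254.3 CPM (mean 264.8 ± 19.7, SD, n = 6). The 5 knockout libraries had 146.8, 130.4, 122.4, 140.0 and 155.2 CPM (139.0 ± 13.0, SD, n = 5). The 6 control libraries had 171.4, 173.0, 166.4, 197.4, 181.8 and 172.1 CPM (177.0 ± 11.2, SD, n = 6). The groups did not overlap at either step: the lowest transgenic library stood above the highest control, and the highest knockout library stood below the lowest control. These values rested on 684 to 979 counts per transgenic library, 403 to 551 per knockout library and 595 to 830 per control library.

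On the log2 scale the fitted differences were 0.58 (SE 0.09) for transgenic against control, -0.35 (SE 0.09) for knockout against control and 0.93 (SE 0.09) for transgenic against knockout. The transgenic step was larger than the knockout step on this scale, and the difference between the steps was not tested, since both use the same control libraries and both entered the choice of the gene. Within groups the SD of log2 CPM was 0.108 in transgenic, 0.135 in knockout and 0.088 in control libraries. Of 9986 rows tested, 4.66% had transgenic libraries all above the controls, 1.66% had knockout libraries all below the controls and 4.24% had transgenic libraries all above the knockouts. Group means stood in the order transgenic, control, knockout for 19.7% of rows, and 0.31% had that order with no overlap at either step. Nothing is read from these shares about Izumo1r, which was picked for that order.

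**Figure D1:**
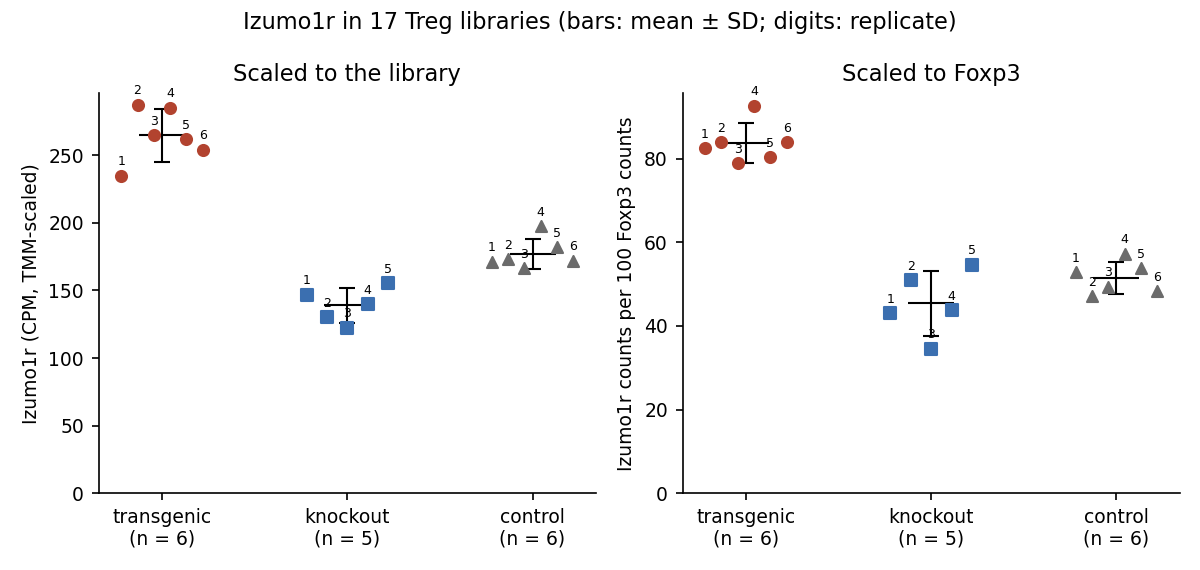
Izumo1r by library in CPM (left) and as Izumo1r counts per 100 Foxp3 counts (right), with transgenic, knockout and control groups along the horizontal axis; points are libraries, digits are replicate numbers and bars are mean ± SD. In CPM the 3 groups occupy separate ranges, while relative to Foxp3 the transgenic libraries stay apart and the knockout libraries, 34.6 to 54.7, overlap the controls, 47.1 to 57.3.

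The step between knockout and control depended on what Izumo1r was scaled to. Relative to Foxp3, the factor that defines Tregs, Izumo1r had 79.0 to 92.7 counts per 100 Foxp3 counts in transgenic libraries (mean 83.8 ± 4.82, SD, n = 6), 34.6 to 54.7 in knockout libraries (45.4 ± 7.79, SD, n = 5) and 47.1 to 57.3 in control libraries (51.5 ± 3.85, SD, n = 6). The transgenic group stayed apart from both others, whereas the knockout and control ranges overlapped and their means differed by -0.20 on the log2 scale. The overlap came through knockout replicates 2 and 5, at 50.9 and 54.7, whose Foxp3 was the lowest of their group, 256.3 and 283.8 CPM. Knockout replicates 1, 3 and 4, at 43.0, 34.6 and 43.8, lay below the lowest control. The part of library composition in this overlap was not tested. Foxp3 itself averaged 316.5 ± 21.9 CPM in transgenic (SD, n = 6), 311.1 ± 40.7 in knockout (SD, n = 5) and 344.4 ± 15.4 in control libraries (SD, n = 6). It did not pass the threshold in any comparison, with adjusted p of 0.51 for transgenic against control, 0.35 for knockout against control and 0.90 for transgenic against knockout (edgeR's quasi-likelihood test, Benjamini-Hochberg adjustment over all rows tested). In bulk libraries, fewer cells of a type and less RNA per cell cannot be told apart.

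Divided by the library total alone, with no composition factor, Izumo1r lay between 203.2 and 296.9 unscaled CPM in transgenic, between 112.8 and 155.5 in knockout and between 168.3 and 214.9 in control libraries. The transgenic and control ranges then overlapped through transgenic replicate 1, which had the lowest TMM factor of its group, 0.865, and the knockout libraries still lay below all controls. With RLE factors, upper quartile factors or totals without the mitochondrially encoded rows, the 3 groups did not overlap.

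Knockout libraries were not alike in how many rows they detected. Replicates 2, 3 and 5 had 13597, 13466 and 13793 rows above 0, against 15024 in replicate 1 and 15908 in replicate 4, and mitochondrially encoded rows took 25.6%, 25.3% and 28.2% of their counts, against 22.04% and 22.55%. In transgenic libraries this share was 19.7 to 24.8% and in control libraries 20 to 24.1%. Izumo1r averaged 143.4 CPM in knockout replicates 1 and 4, which is 81% of the control mean, and 136 CPM in the other 3. Without replicates 2, 3 and 5, the log2 difference of knockout against control was -0.30 (SE 0.11), that of transgenic against control 0.59 and that of transgenic against knockout 0.89, so the order of the groups was the same.

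Set per kb of annotated exon, to compare genes, Izumo1r stood at 114.1 CPM per kb in transgenic, 59.9 in knockout and 76.3 in control libraries. Foxp3 stood at 69.2, 68.0 and 75.3 CPM per kb in the same order, and Gpr83 at 180.3, 245.4 and 224.6. The level of Izumo1r was thus above that of Foxp3 in transgenic libraries, below it in knockout libraries and near it in controls, and below Gpr83 in all 3 groups. These levels hold only as far as each row counts the whole of its transcript.

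Gpr83, a G protein-coupled receptor found on Tregs, lies 15 kb from Izumo1r, and its row did not share the Izumo1r pattern. It had 1225, 920.2, 750.1, 884.8, 853.4 and 879.5 CPM in transgenic libraries. In knockout libraries it had 945.6, 1508, 1125, 1045 and 1628 CPM, and in control libraries 1215, 1327, 1112, 1306, 812.2 and 1094 CPM. The groups overlapped. The log2 differences were -0.32 (SE 0.15) for transgenic against control, 0.13 (SE 0.15) for knockout against control and -0.44 (SE 0.15) for transgenic against knockout, with adjusted p of 0.23, 0.64 and 0.065 in edgeR's quasi-likelihood test. Its highest values in the transgenic and knockout groups came from the libraries with the lowest TMM factors, transgenic replicate 1 (0.865), knockout replicate 2 (0.865) and knockout replicate 5 (0.860), and the part of composition in these values was not tested.

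**Figure D2:**
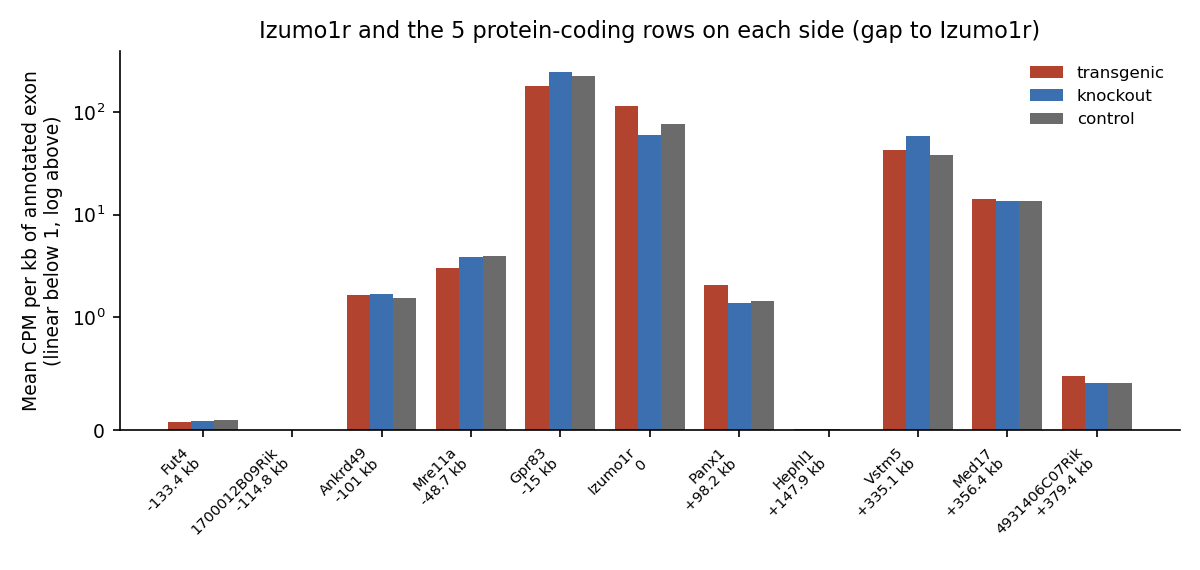
Mean level of Izumo1r and of the 5 protein-coding rows on each side of it on chromosome 9, in CPM per kb of annotated exon (axis linear below 1, logarithmic above), for transgenic, knockout and control libraries, with the gap to Izumo1r under each name. Gpr83 and Izumo1r have the highest bars, and the order transgenic, control, knockout seen for Izumo1r is not seen for Gpr83.

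Of the other rows close to Izumo1r, Panx1, a membrane channel protein, averaged 12.3 CPM in transgenic, 8.28 in knockout and 8.57 in control libraries, and Mre11a, a nuclease of DNA repair, averaged 17.8, 23.0 and 23.3 CPM in the same order. Neither passed the threshold in any comparison. Within 1 Mb of Izumo1r 18 rows were tested. Of these, 1 was called higher in transgenic than in control libraries, against 5.23% of all rows tested, and 1 was called lower in knockout than in control libraries, against 1.01% of all rows. Both calls were Endod1. In transgenic against knockout 2 were called higher, Endod1 and Amotl1, against 6.34% of all rows.

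Endod1, which encodes an endonuclease domain protein and lies 504.3 kb from Izumo1r, followed the Izumo1r order in every library. It had 164.8, 218.6, 229.6, 250, 258.1 and 237.7 CPM in transgenic, 93.6, 68.9, 93.5, 78.4 and 68.7 CPM in knockout, and 150.4, 138.9, 129.8, 120.0, 112.1 and 132.8 CPM in control libraries, with no overlap between groups. Its log2 differences were 0.79 (SE 0.12) for transgenic against control, -0.70 (SE 0.13) for knockout against control and 1.49 (SE 0.13) for transgenic against knockout.

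Endod1 is also among the 10 named rows whose log2 CPM over the 17 libraries was most like that of Izumo1r. Likeness was measured by Pearson's r, over rows whose mean log2 CPM was 3 or more. The 17 points share their genotype groups and library composition, and r is given as a description. Over 6952 rows the median r was 0.03, and 153 rows, or 2.20%, reached 0.8. Leaving out rows with predicted or clone names, the most alike were Dclre1b, an exonuclease of telomere and crosslink repair (r 0.95), and Ffar1, a fatty acid receptor (0.94). Ncbp3, a cap-binding protein, Dguok, a mitochondrial deoxyguanosine kinase, Bcl2l13, a Bcl-2 family protein, and Gpc2, a glypican, each had r of 0.93, and Endod1 and Zbtb20, a zinc finger repressor, each had 0.92. Ffar1 lies 428.6 kb from Nfkbid, the gene that was altered.

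Most of this likeness lay between the genotypes. After group means were removed, the r of these 8 of the 10 rows with Izumo1r ranged between -0.26 for Zbtb20 and 0.58 for Bcl2l13, and was 0.16 for Dclre1b and 0.01 for Endod1. The rows also differed in size from Izumo1r. For transgenic against control the log2 differences were 1.73 for Dclre1b, 1.00 for Zbtb20 and 3.27 for Dguok, and for knockout against control they were -0.77, -0.27 and -4.11, beside 0.58 and -0.35 for Izumo1r. Of the 8 rows, 4 (Dclre1b, Dguok, Gpc2 and Endod1) passed the test against control in both genotypes, upward with the transgene and downward with the knockout, as did 0.461% of all rows tested. Against control, the knockout call was lost in 16 of 28 settings for Gpc2, in 2 for Dclre1b and in 1 for Endod1. Nothing is read from these counts, since likeness was measured in the same libraries and both comparisons share the controls.

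**Figure D3:**
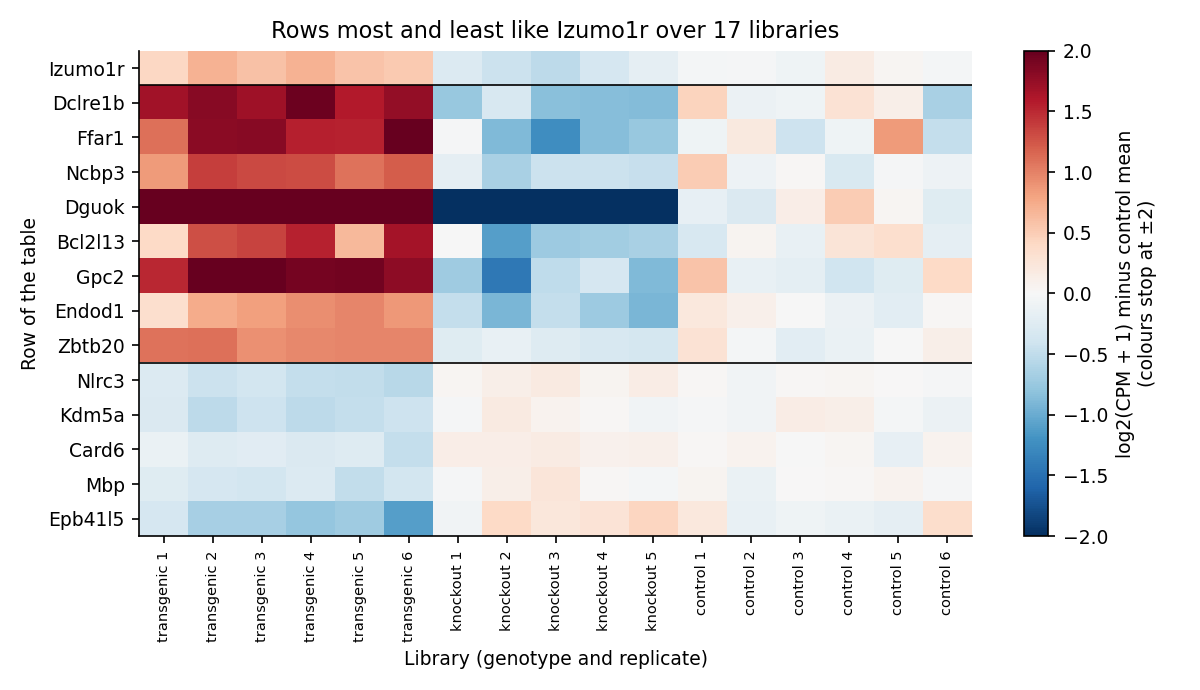
Difference of log2(CPM + 1) from the control mean, as colour, for Izumo1r (top), 8 of the 10 named rows most like it (middle) and the 5 least like it (bottom) in the 17 libraries, ordered transgenic, knockout, control. Izumo1r has paler colours than most rows like it, and Dguok, at 162 CPM in transgenic, 0.921 in knockout and 16.8 in control libraries, reaches the end of the scale.

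Of the 37 rows above the tenth named one in r, 28 had predicted or clone names, and 23 of these lay in the first 10 Mb of chromosome 14. The highest r among them was 0.974, for Gm10340. At the other end were Nlrc3, which restrains innate signalling (r -0.93), Kdm5a, a histone demethylase, and Card6 (each -0.90), and Mbp and Epb41l5 (each -0.89). Nlrc3 averaged 791.2 CPM in transgenic, 1146 in knockout and 1064 in control libraries. After removal of group means, Tox4 was closest to Izumo1r (residual r 0.85), followed by Zfp512 (0.76), Zscan2 and Zfx (each 0.75) and Pde4d (0.74), and 2 of the 6952 rows reached 0.8. Of these 5, Tox4 averaged 18.2 CPM in transgenic, 12.4 in knockout and 17.6 in control libraries, and did not pass the threshold in any comparison. The r with Izumo1r was 0.84 for Nt5e, 0.66 for Nfkbid and 0.02 for Foxp3.

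Of 12 listed rows of other folate receptors and carriers 5 passed the filter on low counts. None of the 5 was called in transgenic against control, where 5.23% of all rows were called higher and 2.17% lower, or in knockout against control, where 0.881% were called higher and 1.01% lower. With so few rows tested and these shares, 0 calls says nothing particular to the list. Their median log2 difference was -0.10 for transgenic against control and -0.04 for knockout against control, beside -0.013 and -0.018 over all rows tested. Folr1, the folate receptor of epithelia, averaged 4.10 ± 1.19 CPM in transgenic (SD, n = 6), 4.83 ± 1.55 in knockout (SD, n = 5) and 6.81 ± 1.39 in control libraries (SD, n = 6), with overlapping groups. Folr2, the receptor of macrophages, and Slc46a3 had 0 counts in every library. Slc46a1, the proton-coupled folate transporter, averaged 6.29 CPM in transgenic, 4.25 in knockout and 3.49 in control libraries and was not called.

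The export pump Abcc1, which carries folates among other substrates, was the only member called in transgenic against knockout, where 6.34% of all rows were called higher and 4.33% lower. It averaged 34.2 ± 3.75 CPM in transgenic (SD, n = 6) and 49.7 ± 9.21 in knockout libraries (SD, n = 5), a log2 difference of -0.54 (SE 0.13, adjusted p = 0.012, edgeR's quasi-likelihood test), and the 2 groups overlapped.

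Of the enzymes that use folate 11 rows were tested, too few for their counts to stand apart from the shares over all rows, 5.23% higher and 2.17% lower in transgenic against control and 0.881% and 1.01% in knockout against control. None of the 3 tested rows of 6 for folate retention and reduction was called in any comparison, nor was any of the 3 tested of 10 mitochondrial one-carbon enzymes, among them Mthfd2, with 37.6 CPM in transgenic, 44.8 in knockout and 39.6 in control libraries. Of 7 cytosolic enzymes 5 were tested and 1 was called, Tyms, the synthase of thymidylate. Tyms had 24.1 to 43.9 CPM in transgenic and 6.89 to 22.3 CPM in control libraries, without overlap, and rose by 0.78 on the log2 scale (SE 0.24, adjusted p = 0.048, edgeR's quasi-likelihood test). That call was lost in 15 of 28 alternative settings. Gart, a purine synthesis enzyme, averaged 408.2 CPM in transgenic, 377.7 in knockout and 413.4 in control libraries and was not called.

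Of 8 genes of sperm and egg recognition, the other setting in which Izumo1r acts, 2 were tested. Neither was called in transgenic against control, where 5.23% of all rows were called higher and 2.17% lower. The same held for knockout against control, where the shares were 0.881% and 1.01%. In transgenic against knockout 1 was called lower, against 4.33% of all rows. With 2 rows tested, nothing is read from these counts. Tmem95, a sperm membrane protein, was lower in transgenic than in knockout libraries, with 21.8 ± 4.15 CPM (SD, n = 6) against 32.6 ± 5.73 CPM (SD, n = 5), a log2 difference of -0.58 (SE 0.16, adjusted p = 0.019, edgeR's quasi-likelihood test), and the groups overlapped. This call was lost in 6 of 28 settings.

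Nt5e, which encodes CD73, the ectoenzyme that makes adenosine and marks anergic cells together with FR4, rose in transgenic libraries against both other groups. It had 564.6, 701.3, 626.3, 687.2, 733.2 and 593.0 CPM in transgenic, 455.7, 389.9, 509.0, 492.4 and 422.1 CPM in knockout, and 482.7, 455.0, 433.6, 464.9, 429.7 and 487.4 CPM in control libraries. The transgenic libraries stood above all others, and knockout and control libraries overlapped. In edgeR's quasi-likelihood test, transgenic against control gave a log2 difference of 0.50 (SE 0.09, adjusted p = 6.7e-04), knockout against control one of -0.02 (SE 0.09, adjusted p = 0.93), and transgenic against knockout one of 0.52 (SE 0.09, adjusted p = 7.8e-04). Both calls were kept in all 28 settings.

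Of 14 genes linked to the anergic state with high CD73 and FR4, 11 were tested. In transgenic against control 2 rose, Nt5e and Tox, and 1 fell, Nrp1, against 5.23% of all rows called higher and 2.17% lower. The median log2 difference was 0.10 for the list and -0.013 over all rows. Tox, a nuclear factor of T cell development and exhaustion, averaged 505.3 CPM in transgenic and 371.0 CPM in control libraries (log2 difference 0.45, SE 0.10, adjusted p = 0.0045, edgeR's quasi-likelihood test). Nrp1, which encodes neuropilin-1, a surface receptor of thymic Tregs, averaged 2.88 CPM in transgenic and 6.62 CPM in control libraries (log2 difference -1.20, SE 0.33, adjusted p = 0.027 in the same test), a call lost in 7 of 28 settings. None of the 11 was called in knockout against control, where 0.881% of all rows were called higher and 1.01% lower. At these shares the lack of calls says nothing particular to the list.

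Of 19 Treg genes 12 were tested. In transgenic against control Ikzf2, Nt5e and Entpd1 rose and Nrp1 fell, against 5.23% of all rows called higher and 2.17% lower. In knockout against control Ikzf2 rose and Entpd1 fell, against 0.881% and 1.01% of all rows. Entpd1, which encodes CD39, the enzyme that acts before CD73, had the Izumo1r order with no overlap but at a low level, with means of 13.7 CPM in transgenic, 2.19 in knockout and 6.34 in control libraries. In edgeR's quasi-likelihood test, transgenic against control gave a log2 difference of 1.10 (SE 0.25, adjusted p = 0.0079), and knockout against control one of -1.55 (SE 0.31, adjusted p = 0.010). Ikzf2, which encodes Helios, was higher in both altered genotypes, with 211.9 CPM in transgenic, 219.0 in knockout and 151.9 in control libraries, and its call was lost in 3 of 28 settings for transgenic against control and in 19 for knockout against control. The knockout call of Entpd1 was lost in 2. In transgenic against knockout Ctla4, Nt5e and Entpd1 were called higher and Nrp1 lower, against 6.34% and 4.33% of all rows. Ctla4, an inhibitory receptor of Tregs, averaged 102.4 CPM in transgenic and 60.8 CPM in knockout libraries (log2 difference 0.75, SE 0.21, adjusted p = 0.021 in the same test). The Ctla4 groups overlapped, and the call was lost in 2 settings. The median log2 difference of the list was 0.12 for transgenic against control and -0.08 for knockout against control, beside -0.013 and -0.018 over all rows.

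**Figure D4:**
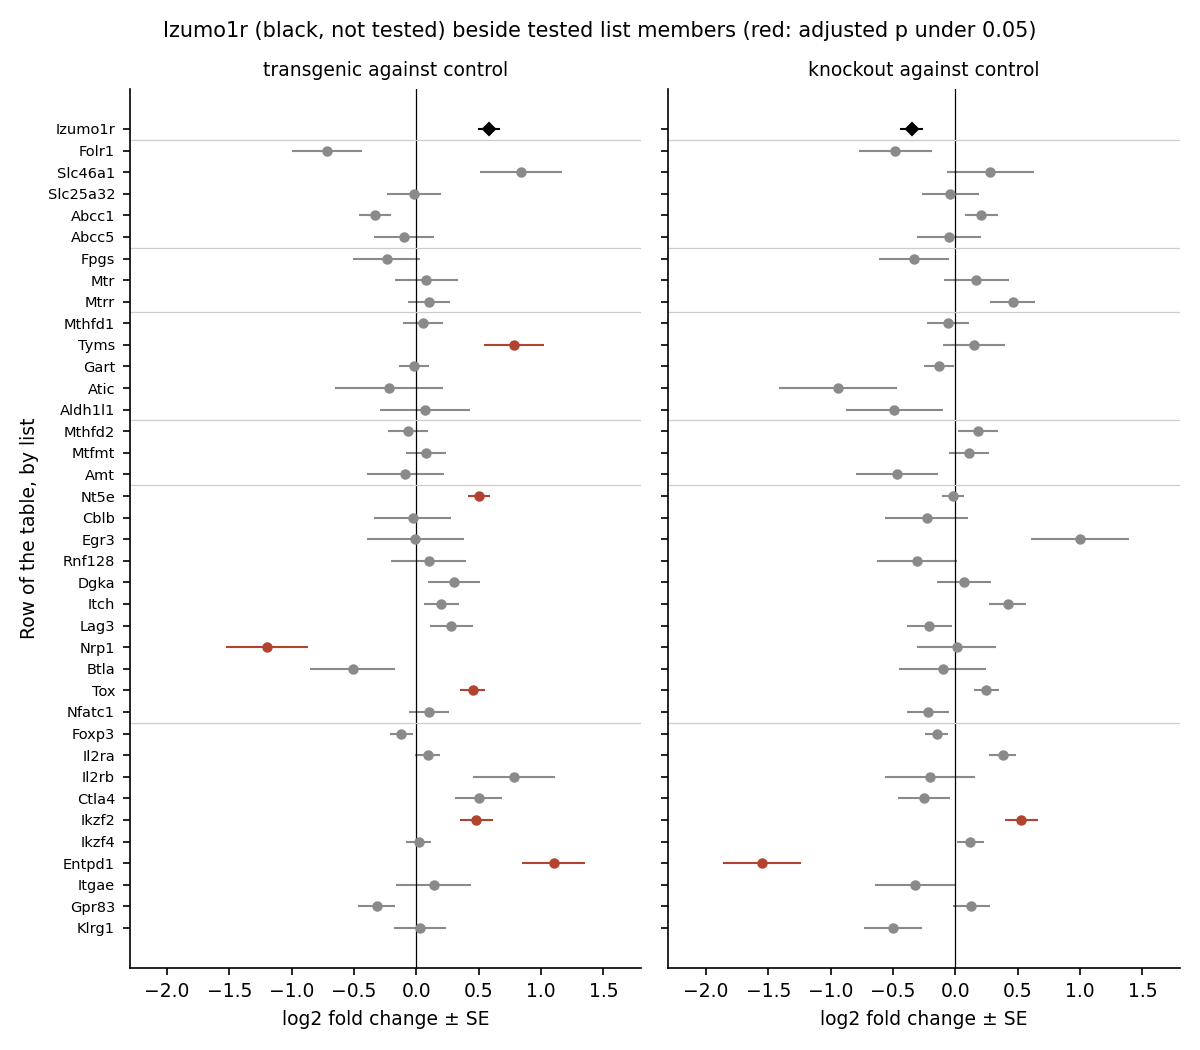
Log2 fold change ± SE of Izumo1r (black diamond, not tested) and of the tested members of the folate, one-carbon, anergy and Treg lists for transgenic against control (left) and knockout against control (right); grey lines part the lists and red marks an adjusted p under 0.05. Entpd1 is the member in red on opposite sides of 0 in both panels.

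Of 14 NF-kB and IkB genes 13 were tested, and in transgenic against control Relb, Nfkbid and Bcl3 rose, against 5.23% of all rows called higher. Bcl3, an atypical IkB protein like the product of Nfkbid, averaged 32.8 CPM in transgenic, 8.35 in knockout and 13.8 in control libraries, and edgeR's quasi-likelihood test gave a log2 difference of 1.25 (SE 0.20, adjusted p = 1.6e-04) against control with the transgene and of -0.71 (SE 0.22, adjusted p = 0.084) with the knockout. Nfkbid rose by 0.94 on the log2 scale in transgenic against control (SE 0.28, adjusted p = 0.045 in the same test), a call lost in 16 of 28 settings, and Relb, an NF-kB subunit, by 0.44, a call lost in 13. None of the 13 was called in knockout against control, where 0.881% of all rows were called higher and 1.01% lower. At these shares the lack of calls says nothing particular to the list. In transgenic against knockout Bcl3 was called higher and Nfkbiz, another atypical IkB protein, lower, against 6.34% and 4.33% of all rows. Nfkbiz averaged 169.7 CPM in transgenic and 251.3 CPM in knockout libraries, with overlapping groups (log2 difference -0.57, SE 0.17, adjusted p = 0.034 in the same test), and this call was lost in 10 of 28 settings.

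Markers of other cells that the sort could hold did not follow the Izumo1r order. Summed over 8 B cell markers, of which 3 were at 0 in every library, the level lay between 177.9 and 269 CPM in transgenic, between 170.2 and 257.3 in knockout and between 213.5 and 299 in control libraries, and over 8 markers of conventional CD4 T cells 183.4 to 287.5, 193.2 to 355.1 and 211.1 to 423.6 CPM in the same order. Summed over 10 myeloid markers it was 53.7 to 68.7, 51.4 to 68.5 and 50.04 to 64.2 CPM, and over 4 CD8 T cell markers 12.7 to 16.3, 8.26 to 22.8 and 11.5 to 15.3 CPM, again in that order. Erythroid markers did not exceed 0.861 CPM, with 5 of 6 at 0 in every library. Few of these markers were tested: 2 of B cells, 3 of conventional CD4 T cells, 3 myeloid, 2 of CD8 T cells, 3 of NK cells and 0 erythroid. Over all rows 5.23% were called higher and 2.17% lower in transgenic against control. The shares were 0.881% and 1.01% in knockout against control, and 6.34% and 4.33% in transgenic against knockout. With so few rows tested, the lack of other calls says nothing particular to these cells. The only marker called was the NK cell marker Tyrobp, which lies close to Nfkbid in the genome. It averaged 639.7 CPM in transgenic, 12.5 in knockout and 9.68 in control libraries. The other 7 NK cell markers summed to between 5.15 and 20.98 CPM in transgenic, between 8.74 and 23.3 in knockout and between 12.9 and 17.4 in control libraries.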

How the data were processed

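The values used are the expected counts of each gene in 17 libraries, as the authors deposited them. Per the submitters' processing notes, reads were aligned to GRCm38 with Bowtie2, and per the labels' design text with Ensembl transcripts. Removal of duplicate reads by molecular identifier is not described in these sources, and the limits given for counts of 0 therefore hold for counting error alone. Of the values, 5.87% were not whole, and counts were rounded. Of 47643 rows, 47224 matched the GRCm38 annotation used here. No 2 libraries held identical values.

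Differences were fitted with edgeR 4.0.16 (R 4.3.3), with TMM factors, filterByExpr, all 17 libraries in 1 quasi-likelihood fit and Benjamini-Hochberg adjustment over 9986 rows, at a threshold of 0.05. The biological coefficient of variation common to all rows was 0.241, and SEs cover the spread between libraries. The fit was also run on simulated counts with 200 changed rows and the same spread for every row. The simulated libraries did not differ in composition or quality, so that run does not show how the fit behaves on these data. Log2 CPM for likeness had a prior count of 2.

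Named rows are Izumo1r, Foxp3 and Nfkbid, the 10 most and 5 least alike rows, the 5 most alike within groups, at most 4 called rows per list or, where none was called, its row of lowest p, and the nearest neighbours. Predicted and clone-named rows were only counted, and 2 of the 10 most alike rows are not reported here. Amotl1, Folr1, Folr2, Slc46a1, Slc46a3 and Gart were added to these after their values had been seen. Gene, lists and rules were chosen with earlier results of these data known. Alternatives were voom in limma 3.58.1, DESeq2 1.42.0, other scalings and filters, a replicate block, fits of 2 groups and leaving out libraries.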

Additional observations from a re-analysis of the deposited data

Results flagged for a closer look

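Of 87 groups of 5 or 6 libraries examined, 7 held a library apart from the others of its group by Dixon's criterion, which chance meets in about 1 of 20 groups. Transgenic replicate 4 had 92.71 Izumo1r counts per 100 Foxp3 counts, the highest of its group. Transgenic replicate 1 had the lowest TMM factor of its group, 0.865, and the highest Gpr83 level, 1225 CPM. Control replicate 1 had the highest total, 4726589 counts, and the highest Ncbp3 level of its group, 393 CPM. Knockout replicate 2 stood above the other knockout libraries in Dclre1b, with 42.71 CPM, and knockout replicate 5 had 0 CPM of Dguok.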

How the results depend on the processing

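In 28 alternatives the log2 difference of Izumo1r stayed between 0.52 and 0.61 for transgenic against control, between -0.48 and -0.30 for knockout against control and between 0.89 and 1.00 for transgenic against knockout. The outer values of 0.52, -0.48 and 1.00 came from library totals with no scaling factor, which, like leaving out knockout replicates 2, 3 and 5, was chosen after seeing the data. Of 3612 recomputed values of named rows, 137 lost their call, 49 gained one and 0 changed sign while called.

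Deviations of same-numbered libraries had correlations between -0.52 and 0.36. With so few libraries per group these cannot decide whether the numbers pair the libraries, and the main fit did not pair them. With a replicate block Izumo1r had 0.58, -0.36 and 0.94, and calls were 23 higher and 44 lower in knockout against control and 214 lower in transgenic against knockout.

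Counts of called rows moved by over 1.5 times elsewhere. Knockout against control had 88 higher and 101 lower calls, but 223 and 348 without a filter, 305 and 268 with DESeq2, 34 and 42 in a fit of those 2 groups, 10 and 33 without knockout replicates 2, 3 and 5, 50 higher with voom and 49 higher with unscaled totals. Transgenic against control had 522 higher and 217 lower, but 785 and 441 in a fit of 2 groups and 879 and 469 without those 3 knockout replicates. Transgenic against knockout had 633 higher and 432 lower, but 420 and 231 in a fit of 2 groups and 208 lower without those 3. The cause was not tested.

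Leaving out each library in turn gave 29 to 592 higher and 55 to 532 lower calls in knockout against control, 389 to 596 and 140 to 280 in transgenic against control, and 473 to 815 and 262 to 826 in transgenic against knockout. Knockout against control had its highest counts, 592 and 532, without knockout replicate 4, its fewest higher calls, 29, without knockout replicate 5, and its fewest lower calls, 55, without control replicate 1. Lower calls in transgenic against knockout were 826 without transgenic replicate 1 and 262 without transgenic replicate 6. Izumo1r then ranged over 0.56 to 0.61, -0.39 to -0.31 and 0.89 to 0.97, and relative to Foxp3 over 0.67 to 0.73 for transgenic against control, -0.27 to -0.10 for knockout against control and 0.81 to 0.97 for transgenic against knockout. Of the 10 most alike rows, 6 to 10 stayed among the 10 in this way, 4 with Spearman's rho and 3 without knockout replicates 2, 3 and 5.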
